A study of Mus musculus with 24 samples.

Results

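The metallothioneins Mt1 and Mt2 and 6 genes that sense or carry zinc across membranes were followed in ileum and liver of C57BL/6 mice, 8 of the 40481 genes in the expression tables. The 8 were taken by gene symbol: Mt1, Mt2, the zinc-sensing transcription factor Mtf1, the exporters Slc30a1 and Slc30a10, and the importers Slc39a4, Slc39a5 and Slc39a14. The set was chosen by the log2 differences between genotypes, so every Villin-Cre against floxed value of these 8 is given as a description without a test. The choice held that Mt1 and Mt2 move oppositely with genotype in the ileum and the liver, and the tables bear this out for Mt2 but not for Mt1, which was higher in Villin-Cre mice in both tissues. All mice had undergone a 75% resection of the intestine, and no group without surgery entered any comparison. Floxed mice (Abca1 fl/fl) were the controls of Villin-Cre mice (Abca1 fl/fl X Villin-Cre), in which Cre driven by the Villin promoter of the intestinal epithelium deletes Abca1, the transporter that moves cholesterol out of cells. Mice of each genotype received vehicle or GW3965, an agonist of the liver X receptors, by mouth in 0.5% carboxymethyl cellulose at 1 mg/kg/day, 2 times a week over the last 5 of the 10 weeks after surgery. Ages were not given in the sources used here, and each combination of tissue, genotype and treatment had 3 libraries of total RNA, 24 in all. The question set by the study's title is whether this low oral dose acts on the liver X receptors of the intestine.

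Metallothioneins are small cytosolic proteins whose many cysteines hold zinc and copper ions, and they buffer the free zinc of the cell. When free zinc rises, MTF1 binds metal response elements in promoters and raises transcription of the metallothionein genes and of Slc30a1, which encodes the exporter ZnT1 of the plasma membrane. Glucocorticoids, acute inflammation and oxidative stress also raise metallothionein transcription, in the liver above all. In enterocytes ZIP4 (Slc39a4) takes up dietary zinc at the lumenal side and its mRNA is stabilised when zinc is scarce, whereas ZIP5 (Slc39a5) lies on the basolateral side. ZIP14 (Slc39a14) carries zinc, manganese and iron into hepatocytes, and ZnT10 (Slc30a10) is known mainly for exporting manganese.

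Ileal libraries held 16.96 to 24.2 M assigned reads and those of the liver 26.4 to 32.3 M. Levels are in CPM, counts per M assigned reads, recovered from the deposited log2 values. Differences are of log2(CPM + 0.5), a scale that understates the change of low genes, and a gene was called where its limma adjusted p was under 0.05. Abca1, the deleted gene, was lower in every Villin-Cre than in every floxed ileum of the same treatment, at 25.7 to 30.6 against 54.2 to 59.9 CPM with vehicle and 53.7 to 54.0 against 251 to 438 CPM with GW3965. The same held in the liver, at 225.0 to 225.4 against 327 to 342 CPM with vehicle and 377 to 382 against 464 to 479 CPM with GW3965. GW3965 raised log2 Abca1 by 2.65 and 0.92 in floxed and Villin-Cre ileum and by 0.49 and 0.75 in floxed and Villin-Cre liver, all called. Markers of enterocytes summed to 15798 CPM or more in every ileal library and markers of hepatocytes to 52878 CPM or more in every liver library. Ileal floxed GW3965 replicate 3 and liver floxed GW3965 replicate 1 stood apart from the other libraries of their groups. The variance between close libraries of a group was 2.58 to 3.58 times that of Poisson counting, and nothing in the labels says that they came from separate mice, so p-values measure the spread between these libraries, which may be technical. In bulk RNA, fewer cells of a type and less RNA per cell cannot be told apart.

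Mt2 and Mt1 lie side by side on the forward strand of chromosome 8 in GRCm38, Mt2 at 94172664 to 94173568 and Mt1 at 94179082 to 94180327, with 5513 bases between them. Their coding sequences are shown because the pair changed in opposite directions in the ileum, and reads must tell them apart for that to be measurable. Capitals mark the 38 of 183 positions at which they differ, in transcripts of the GENCODE annotation.
Mt1: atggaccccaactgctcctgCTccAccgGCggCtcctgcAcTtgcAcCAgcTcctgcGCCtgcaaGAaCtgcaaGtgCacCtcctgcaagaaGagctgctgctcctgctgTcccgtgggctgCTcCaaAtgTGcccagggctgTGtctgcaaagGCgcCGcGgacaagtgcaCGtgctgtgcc
Mt2: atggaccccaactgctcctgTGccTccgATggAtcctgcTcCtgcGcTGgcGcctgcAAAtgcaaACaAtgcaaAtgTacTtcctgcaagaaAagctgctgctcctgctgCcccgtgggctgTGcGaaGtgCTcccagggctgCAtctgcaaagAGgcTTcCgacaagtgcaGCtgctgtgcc
The coding sequences are 79.2% identical, and the longest run they share is 20 bases. No stretch of 31 bases occurs in transcripts of both genes, while reads were 150 bases long, paired. Of the 573 stretches of 31 bases in Mt2 transcripts, 58.1% also occur elsewhere, nearly all of them in Gm45774, a gene annotated on the opposite strand across Mt2 and not analysed here. The strand setting of the counting was not given in the sources used here, so reads of Mt2 and of Gm45774 cannot be told apart. The same limit holds for Slc39a5 and Ankrd52 and for Slc30a10 and Gm2061, which overlap on opposite strands. Opposite-strand overlaps also exist for Mtf1 with 1110065P20Rik and for Slc30a1 with 1700034H15Rik. The former reached at most 6.45 CPM in an ileal and 9.36 CPM in a liver library, and the latter 3.76 and 1.50 CPM.

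The promoters of the pair are shown because they hold the letters that MTF1 is known to bind. Each runs from 250 bases before the RefSeq start through 30 bases from it on, in GRCm38 and on the forward strand, and capitals mark matches to the core of the metal response element, TGCACNC or TGCGCNC, on either strand.
Mt1, chr8:94178839-94179118: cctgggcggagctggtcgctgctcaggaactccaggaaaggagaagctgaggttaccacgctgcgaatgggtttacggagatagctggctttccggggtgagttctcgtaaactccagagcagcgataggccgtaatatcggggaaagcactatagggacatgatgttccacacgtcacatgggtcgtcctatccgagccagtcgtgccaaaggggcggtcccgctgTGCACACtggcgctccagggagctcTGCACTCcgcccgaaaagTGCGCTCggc
Mt2, chr8:94172368-94172647: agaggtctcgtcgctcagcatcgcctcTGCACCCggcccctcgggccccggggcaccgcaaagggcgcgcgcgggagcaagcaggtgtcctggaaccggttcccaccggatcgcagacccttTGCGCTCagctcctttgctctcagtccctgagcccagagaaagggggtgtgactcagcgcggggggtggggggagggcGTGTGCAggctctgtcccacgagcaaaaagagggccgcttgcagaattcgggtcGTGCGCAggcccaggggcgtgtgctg
The Mt1 window holds 3 matches and the Mt2 window 4, against at least 3 matches in 1.97% and at least 4 in 0.517% of 32851 RefSeq promoters of 300 bases. Among the other members Slc30a1 has 2 matches, Slc30a10 has 3, of which a pair overlap, Slc39a5 has 1 in one of its windows, and Mtf1 has 0. Slc39a4 and Slc39a14 are named only. A match describes these letters and not a bound site, and the start sites used in these tissues were not measured.

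Mt1 and Mt2 went opposite ways with genotype in the ileum. Mt1 stood at 111, 95.8 and 115 CPM in the floxed vehicle libraries and at 549, 569 and 581 CPM in the Villin-Cre vehicle libraries. Mt2 stood at 68.8, 68.3 and 67.9 CPM in floxed and at 2.11, 1.93 and 1.78 CPM in Villin-Cre vehicle libraries, the last 3 values resting on 41, 33 and 33 reads. All Villin-Cre libraries were thus above all floxed ones for Mt1 and below them for Mt2. The log2 difference was 2.40 for Mt1 (5.29-fold higher) and -4.82 for Mt2 (28.3-fold lower). With GW3965 the same directions held between genotypes, with Mt1 16.95-fold higher and Mt2 2.79-fold lower in Villin-Cre libraries.

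Under GW3965 the ileal pair moved down together in floxed mice and up together in Villin-Cre mice. Floxed GW3965 libraries held 50.2, 52.5 and 53.2 CPM of Mt1 and 25.2, 28.6 and 19.1 CPM of Mt2, all below the vehicle libraries. The log2 difference from vehicle was -1.03 for Mt1 (SE 0.06, limma adjusted p = 9.9e-10) and -1.49 for Mt2 (SE 0.13, limma adjusted p = 9.3e-08). Villin-Cre GW3965 libraries held 875, 898 and 893 CPM of Mt1 and 8.36, 7.88 and 8.58 CPM of Mt2 (177, 191 and 181 reads), all above the vehicle libraries of that genotype. There the log2 difference was 0.65 for Mt1 (SE 0.06, limma adjusted p = 9.3e-08) and 1.85 for Mt2 (SE 0.13, limma adjusted p = 2.3e-09). Ileal Mt1 was thus ordered Villin-Cre GW3965, Villin-Cre vehicle, floxed vehicle, floxed GW3965, and Mt2 was ordered floxed vehicle, floxed GW3965, Villin-Cre GW3965, Villin-Cre vehicle, with no overlap between neighbours in either order.

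**Figure D1:**
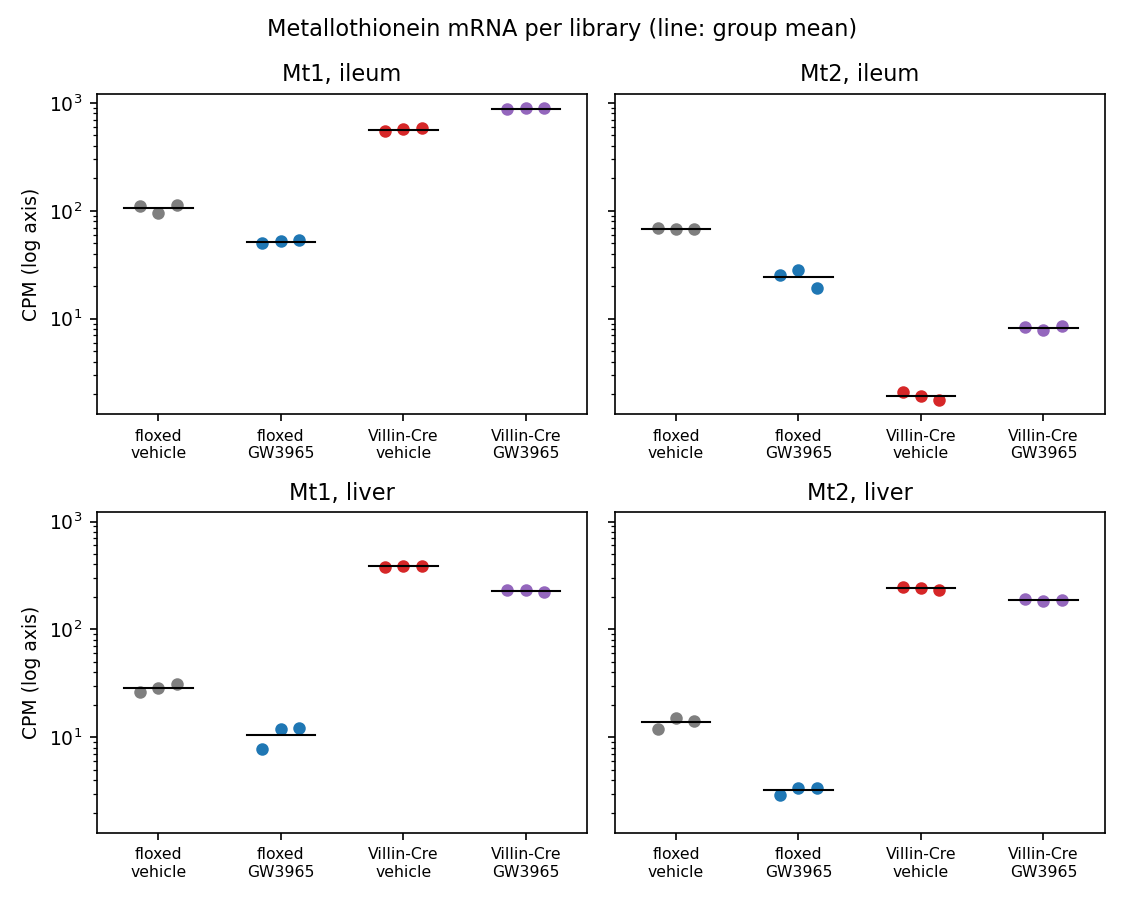
Mt1 and Mt2 in each of the 24 libraries (points, CPM on a log axis) by group in the ileum and the liver, with a line at each group mean of 3 libraries. Ileal Mt2 falls to 1.78 to 2.11 CPM in Villin-Cre vehicle libraries where Mt1 is at 549 CPM or more, while in the liver both genes are high in every Villin-Cre library.

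In the liver both metallothioneins were higher in Villin-Cre than in floxed mice, and both fell under GW3965 in each genotype. Floxed vehicle livers held 26.5, 28.7 and 30.97 CPM of Mt1, against 382, 385 and 387 CPM in Villin-Cre vehicle livers. Mt2 stood at 12.0, 15.2 and 14.2 CPM in the floxed and at 249, 243 and 234 CPM in the Villin-Cre vehicle livers. No floxed liver came near a Villin-Cre liver for either gene, and the log2 differences were 3.72 for Mt1 (13.2-fold) and 4.09 for Mt2 (17.04-fold). With GW3965 the floxed livers held 7.82, 11.8 and 12.2 CPM of Mt1 and 2.91, 3.37 and 3.41 CPM of Mt2. The Villin-Cre livers then held 232, 234 and 221 CPM of Mt1 and 189.6, 184 and 189 CPM of Mt2. Between genotypes under GW3965, Mt1 differed 21.03-fold and Mt2 50.5-fold. Against vehicle, log2 Mt1 was lower by 1.42 in floxed (SE 0.12, limma adjusted p = 1.2e-06) and by 0.75 in Villin-Cre livers (SE 0.12, limma adjusted p = 0.0013). Mt2 was lower by 1.94 (SE 0.08, limma adjusted p = 1.6e-09) and by 0.37 (SE 0.08, limma adjusted p = 0.0087). Both genes had the same order in the liver, Villin-Cre vehicle, Villin-Cre GW3965, floxed vehicle and floxed GW3965, without overlap between neighbours.

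The balance of the pair changed in the Villin-Cre ileum. The ratio of Mt1 to Mt2 CPM was 1.403 to 1.69 in floxed vehicle ilea and 1.84 to 2.79 in floxed GW3965 ilea. It was 261, 295 and 327 in Villin-Cre vehicle ilea and 105, 114 and 104 in Villin-Cre GW3965 ilea. All 12 liver libraries lay between 1.17 and 3.57, lowest in the Villin-Cre GW3965 livers. Per kilobase of the spliced transcript, 549 bases for Mt1 and 511 for Mt2, the mean level in floxed vehicle ileum was 195 ± 18.0 CPM per kilobase for Mt1 and 134 ± 0.900 for Mt2 (SD, n = 3). The same quantity in Villin-Cre vehicle ileum was 1032 ± 29.0 for Mt1 and 3.79 ± 0.324 for Mt2, and in Villin-Cre vehicle liver 700 ± 5.00 and 474 ± 15.0. The sum of both genes was 164 to 182 CPM in floxed vehicle and 883 to 906 CPM in Villin-Cre GW3965 ilea, and 10.7 to 15.6 CPM in floxed GW3965 and 621 to 631 CPM in Villin-Cre vehicle livers, the lowest and highest groups of the liver.

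**Figure D2:**
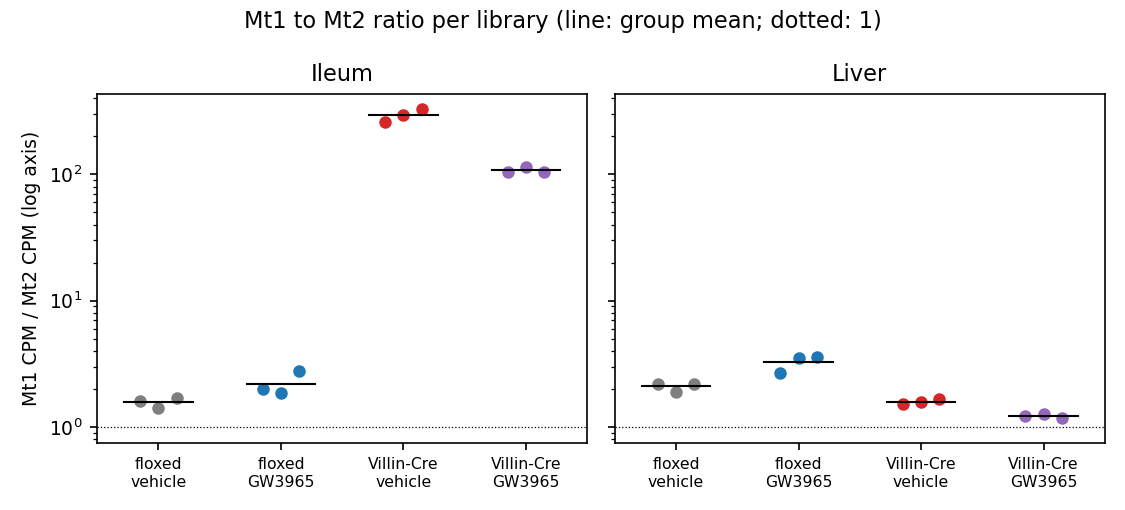
Ratio of Mt1 to Mt2 CPM in each library (points, log axis) by group and tissue, with a dotted line where both are equal. The 6 Villin-Cre ilea lie at 104 or more, and the other 18 libraries at 3.57 or less.

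Across the 8 genes, GW3965 raised 2 and lowered 2 in floxed ileum, where 35.6% of the 18656 genes tested were called (14.7% higher, 20.9% lower). In Villin-Cre ileum it raised 7 and lowered 0, where 52.5% were called (21.5% higher, 31.1% lower). In floxed liver it raised 0 and lowered 5 of the 8, against 30.1% of 17520 genes called (10.4% higher, 19.7% lower), and in Villin-Cre liver it raised 3 and lowered 2, against 11.9% (2.85% higher, 9.03% lower). The median log2 difference of the 8 was -0.01, 0.72, -0.67 and 0.17 in these 4 comparisons, beside -0.0766, -0.107, -0.0438 and -0.0812 over all genes tested. All 8 passed the filter on low values in both tissues. The libraries of GW3965 and vehicle did not overlap for 4 and 7 of the 8 genes in floxed and Villin-Cre ileum, where 43.8 and 61.5% of all genes did not, and for 6 and 6 in floxed and Villin-Cre liver, where 39.1 and 40% did not. These comparisons share their libraries with the genotype differences that chose the genes. Without ileal floxed GW3965 replicate 3, 7 of the 8 were called in floxed ileum, and without liver floxed GW3965 replicate 1, 7 were called in floxed liver and 6 in Villin-Cre liver. With close libraries averaged, 3 of the 4 groups of a tissue held 1 unit, and the spread came from the 2 units of the floxed GW3965 group alone (1 residual degree of freedom). The calls then fell to 1 and 3 in floxed and Villin-Cre ileum and to 0 and 0 in the liver, a fall that this loss of units brings with it and that says nothing on stability. All 41 differences called for the 8 genes in the comparisons tested kept their sign under the averaging, and their log2 values moved by -0.16 to 0.13.

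**Figure D3:**
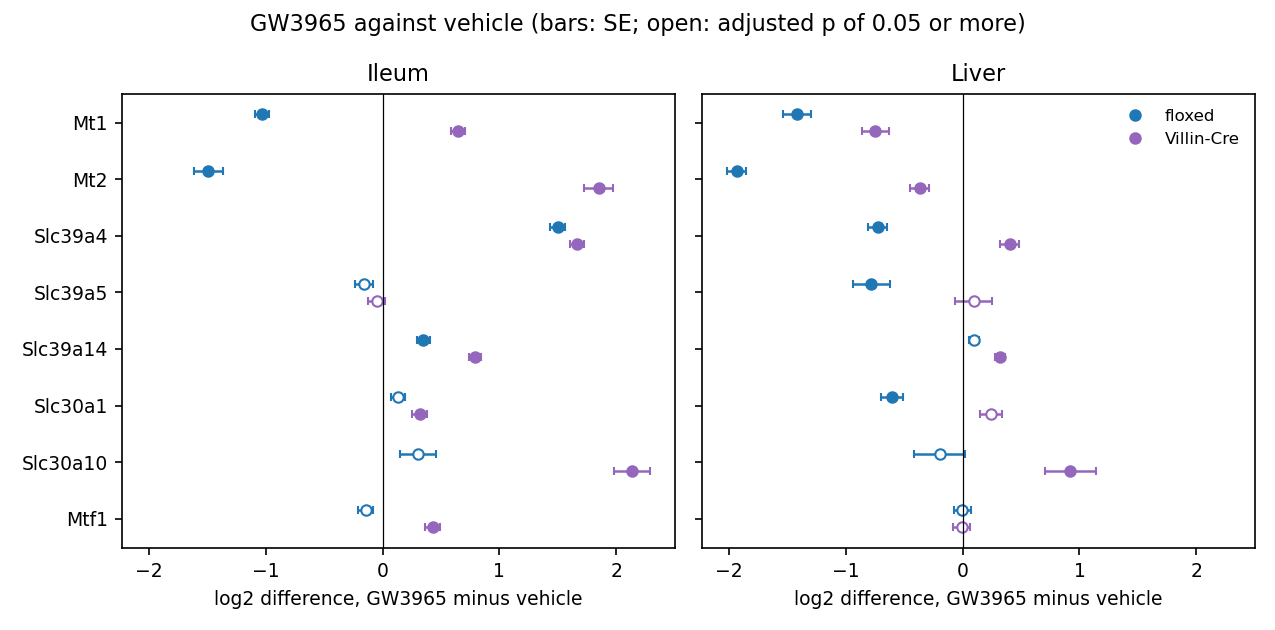
Log2 difference between GW3965 and vehicle, in log2(CPM + 0.5) ± SE, for the 8 genes in floxed (blue) and Villin-Cre (purple) mice, by tissue, with open symbols where the limma adjusted p was 0.05 or more. Slc39a4 lies at 1.50 and 1.66 in the ileum and at -0.73 and 0.40 in the liver.

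Among ileal importers, Slc39a4 rose under GW3965 in both genotypes. It stood at 78.9, 78.5 and 84.9 CPM in floxed vehicle and at 220.4, 212 and 258 CPM in floxed GW3965 ilea. The Villin-Cre ilea held 204, 206 and 208 CPM with vehicle and 650.3, 676 and 639 CPM with GW3965. The GW3965 libraries lay above the vehicle libraries in each genotype, by a log2 difference of 1.50 (SE 0.06, limma adjusted p = 1.9e-11) and 1.66 (SE 0.06, limma adjusted p = 2.2e-12), or 2.83-fold and 3.17-fold. Between genotypes it was higher in Villin-Cre ilea by 1.35 with vehicle and 1.51 with GW3965. In order of level the groups ran Villin-Cre GW3965, floxed GW3965, Villin-Cre vehicle and floxed vehicle, and no neighbours overlapped.

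Slc39a14, an importer of zinc, manganese and iron, also rose in both genotypes. Floxed ilea went from 109, 110.2 and 102 CPM to 137, 138 and 135 CPM, by a log2 difference of 0.35 (SE 0.05, limma adjusted p = 6.9e-05). Villin-Cre ilea went from 104, 101 and 97.5 CPM to 181, 167 and 179 CPM, by 0.79 (SE 0.05, limma adjusted p = 1.9e-09). The vehicle groups of the 2 genotypes overlapped, with a log2 difference of -0.08 that became 0.16 when libraries were scaled by the median of gene ratios in place of total reads. Slc39a5, the basolateral importer, did not pass the test in either genotype, at 153 to 163 CPM in floxed vehicle, 126 to 164 in floxed GW3965, 130.4 to 135 in Villin-Cre vehicle and 124 to 132 in Villin-Cre GW3965 ilea. Its log2 difference with GW3965 was -0.16 in floxed (SE 0.07, limma adjusted p = 0.12) and -0.05 in Villin-Cre ilea (SE 0.07, limma adjusted p = 0.59), and the former was -0.27 without replicate 3 of the floxed GW3965 group (limma adjusted p = 1e-04). Per kilobase of exon, Slc39a5 led the importers in floxed vehicle ileum at 70.7 CPM per kilobase, with Slc39a4 at 26.0 and Slc39a14 at 10.2, whereas in Villin-Cre GW3965 ileum Slc39a4 led at 211, with Slc39a5 at 57.2 and Slc39a14 at 16.6. The lengths here were all annotated exon bases, 2225 for Slc39a5, 3106 for Slc39a4 and 10550 for Slc39a14, not the spliced transcript used for Mt1 and Mt2. Levels between genes depend on that choice.

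**Figure D4:**
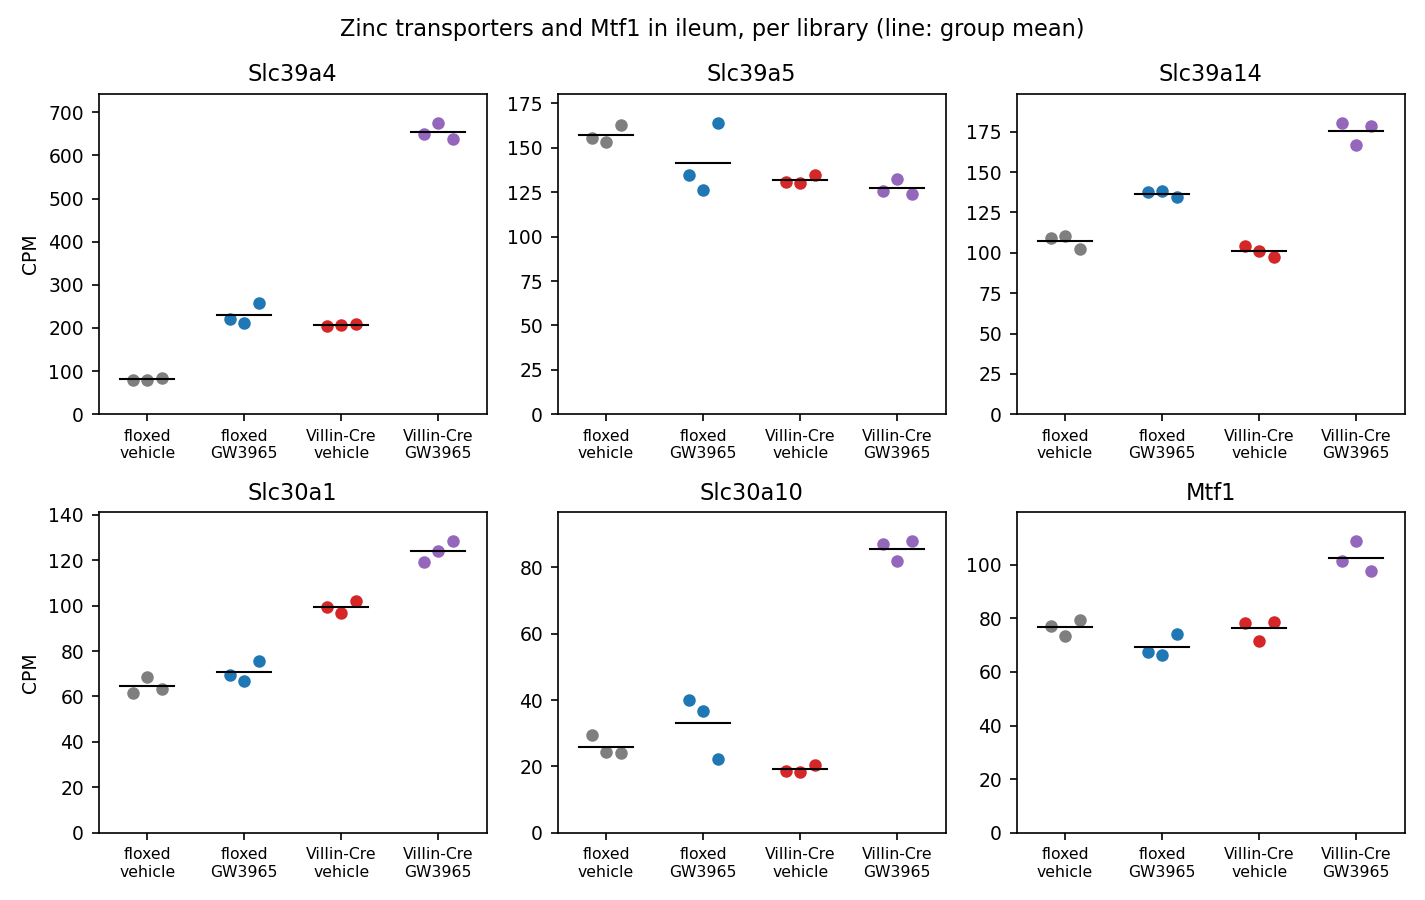
Slc39a4, Slc39a5, Slc39a14, Slc30a1, Slc30a10 and Mtf1 in each ileal library (points, CPM on a linear axis from 0) by group, with a line at each mean of 3 libraries. Slc39a4 reaches 639 to 676 CPM and Slc30a10 82.0 to 87.9 CPM in the Villin-Cre GW3965 group.

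Ileal Slc30a10 and Slc30a1 rose with GW3965 in Villin-Cre mice, and neither passed the test in floxed mice. Slc30a10, the manganese exporter, stood at 18.5, 18.5 and 20.5 CPM in Villin-Cre vehicle and at 87.1, 82.0 and 87.9 CPM in Villin-Cre GW3965 ilea, a log2 difference of 2.13 (SE 0.15, limma adjusted p = 3.6e-09). Floxed ilea held 29.4, 24.2 and 24.2 CPM with vehicle and 40.0, 36.6 and 22.3 CPM with GW3965, so that these groups overlapped through replicate 3, and the difference was 0.30 (SE 0.15, limma adjusted p = 0.14). Without that replicate it was 0.56 (limma adjusted p = 3.3e-06). Gm2061, whose reads cannot be told from those of Slc30a10 where they overlap, averaged 6.47, 6.17, 5.62 and 17.2 CPM in floxed vehicle, floxed GW3965, Villin-Cre vehicle and Villin-Cre GW3965 ilea.

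Slc30a1, the zinc exporter under MTF1, stood at 61.6 to 68.5 CPM in floxed vehicle and 66.7 to 75.4 CPM in floxed GW3965 ilea, which overlapped. Villin-Cre ilea held 96.8 to 102 CPM with vehicle and 119 to 128 CPM with GW3965, above every floxed ileum. The log2 difference with GW3965 was 0.32 in Villin-Cre (SE 0.06, limma adjusted p = 0.00039) and 0.13 in floxed ilea (SE 0.06, limma adjusted p = 0.12), the latter reaching 0.21 (limma adjusted p = 0.02) when scaled by the median of gene ratios. Mtf1 itself stood at 66.2 to 79.4 CPM in the floxed groups, at 71.5 to 78.8 CPM in Villin-Cre vehicle and at 97.8 to 109 CPM in Villin-Cre GW3965 ilea, the group that lay above the others. Its log2 difference with GW3965 was 0.43 in Villin-Cre (SE 0.07, limma adjusted p = 3.5e-05) and -0.15 in floxed ilea (SE 0.07, limma adjusted p = 0.097).

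Liver Slc39a4 fell in floxed and rose in Villin-Cre mice under GW3965. Floxed livers held 181, 179.8 and 180.2 CPM with vehicle and 89.5, 121 and 117 CPM with GW3965, a log2 difference of -0.73 (SE 0.08, limma adjusted p = 1.9e-05). Villin-Cre livers held 135, 129.9 and 136 CPM with vehicle and 177, 178 and 174 CPM with GW3965, a difference of 0.40 (SE 0.08, limma adjusted p = 0.0074). The floxed vehicle livers were the highest group and the floxed GW3965 livers the lowest, and no neighbours in the order overlapped. Slc39a14 had 247 to 260 CPM in floxed and 253 to 267 CPM in Villin-Cre vehicle livers, which overlapped. With GW3965 it rose to 324, 328 and 328 CPM in Villin-Cre livers, by 0.32 (SE 0.04, limma adjusted p = 0.00022), and stood at 267 to 276 CPM in floxed livers, where the difference of 0.10 did not pass (SE 0.04, limma adjusted p = 0.088), though it did when scaled by the median of gene ratios (limma adjusted p = 0.013) or without replicate 1 of floxed GW3965 (limma adjusted p = 0.0081). Slc39a5 was scarce, at 5.68, 8.99 and 6.64 CPM in floxed vehicle and 4.27, 4.12 and 3.24 CPM in floxed GW3965 livers, a fall of 0.78 on the log2 scale (SE 0.16, limma adjusted p = 0.0017). Its Villin-Cre livers lay at 3.89 to 4.56 CPM across both treatments (difference 0.09, limma adjusted p = 0.75). Ankrd52 on the opposite strand of Slc39a5 was at 92.6 to 162 CPM in the liver, far above it.

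**Figure D5:**
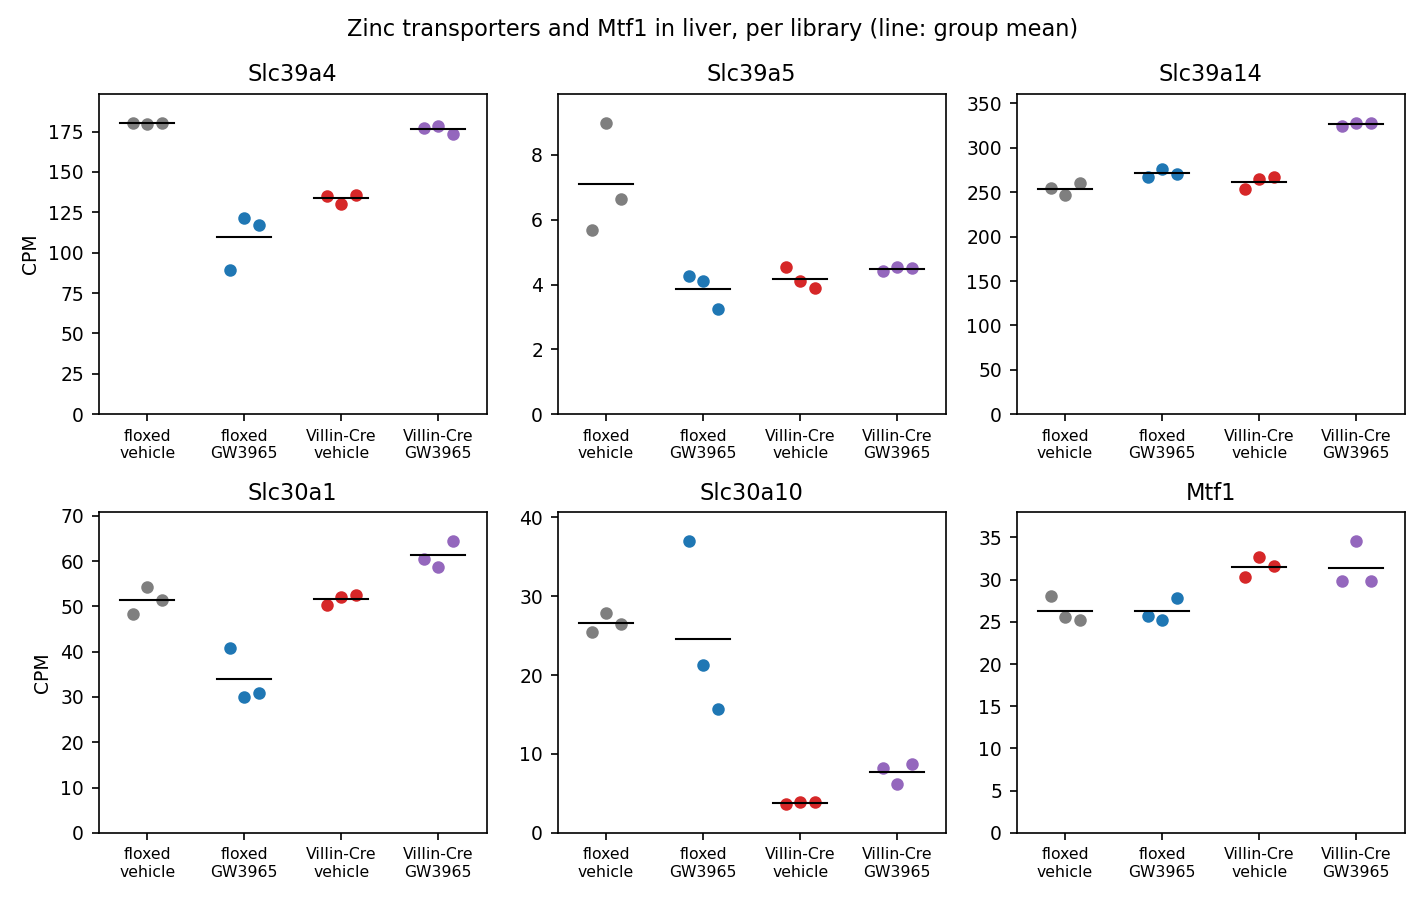
The same 6 genes in each liver library (points, CPM on a linear axis from 0) by group, with a line at each mean of 3 libraries. Slc30a10 lies at 3.60 to 8.78 CPM in the 6 Villin-Cre livers and at 15.7 CPM or more in the 6 floxed livers.

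Of the liver exporters, Slc30a10 was the member most reduced in Villin-Cre mice. It stood at 25.5, 27.9 and 26.5 CPM in floxed vehicle and at 3.60, 3.91 and 3.96 CPM in Villin-Cre vehicle livers, 6.28-fold lower. GW3965 raised it in Villin-Cre livers to 8.26, 6.25 and 8.78 CPM, by 0.92 (SE 0.22, limma adjusted p = 0.015), a call that was lost with voom (limma adjusted p = 0.12) and without any of 3 Villin-Cre libraries (vehicle replicate 1 and GW3965 replicates 1 and 3, limma adjusted p = 0.059 to 0.071). Floxed GW3965 livers held 37.0, 21.2 and 15.7 CPM, a spread that took in the vehicle values, with a difference of -0.20 (SE 0.22, limma adjusted p = 0.54) that became -0.53 without replicate 1 (limma adjusted p = 0.0011). Slc30a1 fell in floxed livers from 48.3, 54.3 and 51.5 to 40.9, 30.02 and 30.8 CPM, by 0.61 (SE 0.09, limma adjusted p = 0.00024). In Villin-Cre livers it went from 50.2, 52.0 and 52.4 to 60.6, 58.8 and 64.4 CPM without overlap, by 0.25 (SE 0.09, limma adjusted p = 0.11), and passed when scaled by the median of gene ratios (limma adjusted p = 0.047), when only those groups were fitted (limma adjusted p = 0.00029) or without floxed GW3965 replicate 1 (limma adjusted p = 0.00035). Liver Mtf1 ranged from 25.2 to 28.1 CPM in floxed and from 29.8 to 34.6 CPM in Villin-Cre livers, and GW3965 changed it in neither genotype by the test (differences of -0.00 and -0.01, limma adjusted p = 0.99 and 0.96).

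Set side by side between genotypes, 6 of the 8 genes had no overlap of libraries in vehicle ileum, where the same held for 52.5% of all genes, and 7 of 8 in GW3965 ileum (57.5% of all genes). In the liver these counts were 6 of 8 with vehicle (67.4%) and 8 of 8 with GW3965 (58.5%). With vehicle and GW3965 in turn, the log2 difference, Villin-Cre minus floxed, was 1.35 and 1.51 for Slc39a4 and -0.42 and 1.41 for Slc30a10 in the ileum, and -2.65 and -1.53 for Slc30a10 in the liver. Other ileal values were 0.62 and 0.81 for Slc30a1, -0.25 and -0.14 for Slc39a5, -0.08 and 0.36 for Slc39a14 and -0.01 and 0.57 for Mtf1. Other liver values were -0.43 and 0.70 for Slc39a4, -0.68 and 0.20 for Slc39a5, 0.01 and 0.86 for Slc30a1, 0.04 and 0.27 for Slc39a14 and 0.26 and 0.25 for Mtf1. Scaling by the median of gene ratios turned the sign for 7 of these values, Mtf1 and Slc39a14 in vehicle ileum, Slc39a5 in GW3965 ileum, Mtf1, Slc30a1 and Slc39a14 in vehicle liver and Slc39a5 in GW3965 liver, and left -0.00 for Slc39a5 in vehicle ileum. None turned for Mt1, Mt2, Slc39a4 or Slc30a10.

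The difference in GW3965 response between genotypes was tested for the 6 genes other than the metallothioneins. It equals the genotype difference with GW3965 minus that with vehicle, the values by which the set was chosen. Its p-values and counts are therefore not independent of that choice. In the ileum 3 of 6 responded more in the Villin-Cre mice, where 33% of all genes were called (14.6% higher, 18.4% lower): Slc30a10 by 1.83 (SE 0.21, limma adjusted p = 5.4e-06), Mtf1 by 0.57 (SE 0.09, limma adjusted p = 0.00015) and Slc39a14 by 0.44 (SE 0.08, limma adjusted p = 0.00024). Slc39a4 (0.16, limma adjusted p = 0.18), Slc30a1 (0.19, limma adjusted p = 0.12) and Slc39a5 (0.11, limma adjusted p = 0.49) did not pass, and all of them did without ileal floxed GW3965 replicate 3, making 6. Among liver genes 5 of 6 differed, against 19.9% of all genes (10.2% higher, 9.7% lower). Slc39a4 (1.13, SE 0.12, limma adjusted p = 2e-05), Slc30a1 (0.85, SE 0.13, limma adjusted p = 0.00051), Slc39a5 (0.88, SE 0.22, limma adjusted p = 0.013), Slc39a14 (0.23, SE 0.06, limma adjusted p = 0.013) and Slc30a10 (1.12, SE 0.31, limma adjusted p = 0.021) had higher values with Cre, and Mtf1 did not pass (-0.01, limma adjusted p = 0.98). The Slc30a10 call was lost with no filter, with voom and without any of 4 libraries: floxed vehicle replicate 2, Villin-Cre vehicle replicate 1 and Villin-Cre GW3965 replicates 1 and 3 (limma adjusted p = 0.051 to 0.074). For Mt1 and Mt2 the same difference was 1.68 and 3.34 in the ileum and 0.67 and 1.57 in the liver, given without a test.

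The GW3965 response also differed between the tissues, and every call was toward a higher value in the ileum. In floxed mice 6 of 8 genes were called, against 29.1% of 16322 genes (15.2% higher, 14% lower): Slc39a4 by 2.23 (SE 0.11, limma adjusted p = 2e-13), Slc30a1 by 0.73, Slc39a5 by 0.62, Slc39a14 by 0.25, and, with limma adjusted p of 0.041 and 0.027, Mt1 by 0.39 and Mt2 by 0.44. The Mt1 and Mt2 calls were both lost with a pseudocount of 2 and when only the groups compared were fitted (limma adjusted p = 0.087 to 0.42), and that of Mt1 with no filter (limma adjusted p = 0.092). Both were also lost without any of 4 floxed libraries, ileal GW3965 replicate 2, liver vehicle replicates 2 and 3 and liver GW3965 replicate 1, Mt1 without ileal vehicle replicate 2 or GW3965 replicate 3 as well, and Mt2 without ileal GW3965 replicate 1 (limma adjusted p = 0.057 to 0.12). Floxed Slc30a10, not called at 0.50 (limma adjusted p = 0.21), was called without ileal GW3965 replicate 3 (limma adjusted p = 0.029) or liver GW3965 replicate 1 (limma adjusted p = 0.0059). In Villin-Cre mice 6 of 8 were called, against 42.8% of all genes (20.7% higher, 22.1% lower): Mt2 by 2.22 (limma adjusted p = 1.8e-11), Mt1 by 1.396 (limma adjusted p = 1.6e-08), Slc39a4 by 1.26, Slc30a10 by 1.21, Slc39a14 by 0.47 and Mtf1 by 0.43. Villin-Cre Mt1 and Mt2 rose in the ileum and fell in the liver under the drug, as each tissue's own test shows. With close libraries averaged, which leaves 1 unit in 3 of the 4 groups of each tissue, no member was called in either comparison between tissues or in either difference between genotypes.

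The other zinc transporters of the Slc30 and Slc39 families and Tmem163 were counted as a fixed list, of which 17 of 20 passed the filter in each tissue, 7 of 9 exporters and 10 of 11 importers. Mt3 and Mt4, the other metallothionein genes, were under the filter in both tissues. In ileum GW3965 raised 3 and lowered 4 of the 17 in floxed mice (median -0.18) and raised 6 and lowered 5 in Villin-Cre mice (median -0.00), beside all-gene shares of 14.7 and 20.9% in the former and 21.5 and 31.1% in the latter. With GW3965 in Villin-Cre ileum, Slc39a9, an importer of the Golgi and plasma membrane, rose from a mean of 96.9 to 187 CPM (log2 0.95, limma adjusted p = 3.4e-10), and Slc30a2, the vesicular exporter ZnT2 that is also a Paneth cell gene, rose from 35.5 to 101 CPM (1.50, limma adjusted p = 2.3e-08). Tmem163 fell by 1.29 (limma adjusted p = 6.4e-07) and Slc39a6, ZIP6, by 1.21 (limma adjusted p = 4.1e-06). In floxed ileum Slc30a4, ZnT4 of endosomes, rose from 79.0 to 125 CPM (0.66, limma adjusted p = 1.6e-06), and Slc39a11 fell from 51.6 to 30.7 CPM (-0.74, limma adjusted p = 5.4e-05). The secretory pathway exporters Slc30a5 and Slc30a7 fell by 0.42 and 0.46 (limma adjusted p = 0.00012 and 0.00017).

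Liver GW3965 effects on that list differed by genotype in count, 2 higher and 9 lower of 17 in floxed livers (median -0.25) and 0 and 0 in Villin-Cre livers (median -0.03), a contrast of counts that was not itself tested. Of all liver genes tested, 10.4% were higher and 19.7% lower in the former and 2.85% and 9.03% in the latter. In Villin-Cre livers 3 of the 17 had an unadjusted p under 0.05 and voom also called 0. Slc39a11 (-0.55, limma adjusted p = 6.5e-06), Slc30a4 (-0.75, limma adjusted p = 2.3e-05), Slc30a6 (-0.59, limma adjusted p = 0.00042) and Slc30a5 (-0.35, limma adjusted p = 0.00039) fell in floxed livers. Between genotypes the counts of this list depended on the scaling. They were 1 higher and 7 lower in vehicle ileum, 4 and 8 in GW3965 ileum, 10 and 2 in vehicle liver and 13 and 2 in GW3965 liver at total-read scaling, and became 2 and 5, 7 and 6, 4 and 3, and 8 and 3 when scaled by the median of gene ratios. In those 4 comparisons 40.3, 51.9, 56.8 and 55.9% of all genes were called, and the percent higher and lower was 9.61 and 30.7, 13.6 and 38.3, 45.1 and 11.7, and 40.9 and 15. The medians of all genes were -0.178, -0.244, 0.263 and 0.206, and 0.0363, -0.00351, 0.0145 and -0.00198 after that scaling. The share of calls that were higher moved with it from 23.8 to 57.9%, 26.1 to 52.1%, 79.3 to 49.3% and 73.1 to 51.3%, and for GW3965 from 41.2 to 53.4% in floxed ileum, 34.5 to 44.8% in floxed liver and 24 to 59.9% in Villin-Cre liver. Examples with differences past these shifts were Slc39a8, ZIP8, in vehicle ileum (8.02 to 2.19 CPM, -1.65, limma adjusted p = 8.6e-06), Slc39a6 in vehicle liver (4.24 to 15.7 CPM, 1.77, limma adjusted p = 4.4e-08) and in GW3965 liver (3.26 to 14.7 CPM, 2.02, limma adjusted p = 7.5e-09), and Slc30a4 in GW3965 liver (11.7 to 38.6 CPM, 1.68, limma adjusted p = 1e-09).

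Lists of responses known to act on metallothionein genes moved beside them as follows. Of all genes tested, 45.1% were higher and 11.7% lower in Villin-Cre than in floxed vehicle liver, and GW3965 raised 10.4% and lowered 19.7% in floxed and raised 2.85% and lowered 9.03% in Villin-Cre liver. In vehicle liver, Villin-Cre against floxed, 8 of 10 targets of the oxidative stress factor NRF2 were higher and 0 lower, among them Slc7a11, the cystine importer, at 13.2 against 241 CPM (4.14, limma adjusted p = 1e-11) and Srxn1, sulfiredoxin, at 169.6 against 969 CPM (2.51, limma adjusted p = 3.6e-11). GW3965 lowered 6 of these 10 and raised 1 in floxed livers, with Slc7a11 from 13.2 to 0.799 CPM (-3.43, limma adjusted p = 6e-10), and lowered 6 and raised 0 in Villin-Cre livers. Liver counts under GW3965 are given for this list alone, so they do not set it apart from the other response lists. Of 12 glucocorticoid-responsive genes, 10 were higher and 0 lower in Villin-Cre vehicle livers, including Lcn2 at 35.4 against 484 CPM (3.76, limma adjusted p = 1.6e-12), Dusp1 (2.05, limma adjusted p = 4.1e-09) and Fkbp5 (1.59, limma adjusted p = 1.6e-06). Of 16 acute phase genes 9 were higher and 3 lower there, with Orm2 at 11.6 against 56.5 CPM (2.23, limma adjusted p = 3.6e-11) and Saa1 at 16.2 against 54.9 CPM (1.74, limma adjusted p = 1.3e-08). The 9 of 16 is a share near that of all genes. Scaled by the median of gene ratios, the counts between genotypes were 8 and 1, 8 and 0, and 7 and 4. The part of these responses in the metallothionein levels was not tested.

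In the ileum the counts of these lists ran both ways, where 9.61% of all genes were higher and 30.7% lower between genotypes with vehicle, and GW3965 raised 21.5% and lowered 31.1% in Villin-Cre mice. Between genotypes with vehicle, 2 of 10 NRF2 targets were higher and 3 lower, 2 of 12 glucocorticoid-responsive genes were higher and 7 lower, and 2 of 14 acute phase genes were higher and 2 lower, counts that became 4 and 3, 3 and 7, and 3 and 1 when scaled by the median of gene ratios. GW3965 in Villin-Cre ileum raised 6 and lowered 2 of the NRF2 targets, with Gclm from 36.6 to 113 CPM (1.61, limma adjusted p = 1.1e-11) and Gclc from 34.1 to 111 CPM (1.69, limma adjusted p = 1.9e-09), both of glutathione synthesis. It raised 7 and lowered 2 of the glucocorticoid-responsive genes, with Sgk1 from 133 to 562 CPM (2.08, limma adjusted p = 1.6e-13). Of 12 copper-handling genes, whose metal the metallothioneins also bind, 3 rose and 4 fell there (4 and 2 when scaled by the median of gene ratios), and the copper importer Slc31a1 rose from 68.5 to 221 CPM (1.68, limma adjusted p = 5e-11). Slc31a1 also rose in floxed ileum, by 0.83 (limma adjusted p = 8.3e-07). The NRF2 targets of smallest p under GW3965 in floxed ileum went both ways. Gpx2 fell from 303 to 93.4 CPM (-1.69, limma adjusted p = 3.3e-13) and Gsr from 431 to 158 CPM (-1.44, limma adjusted p = 9.2e-12). Gclm rose from 31.5 to 52.2 CPM (0.72, limma adjusted p = 5.5e-07) and Slc7a11 from 1.02 to 8.35 CPM (2.22, limma adjusted p = 0.00074).

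Markers of the cells that a piece of ileum holds also differed between the groups, though not all in the same comparisons. Enterocyte markers, led by Anpep, Apob and Sis, summed to 15798 to 16256 CPM in floxed vehicle, 25406 to 28923 in floxed GW3965, 20801 to 21076 in Villin-Cre vehicle and 45857 to 46907 in Villin-Cre GW3965 ilea. GW3965 raised 11 of the 14 and lowered 0 in floxed ilea, where 14.7% of all genes were higher and 20.9% lower. It raised all 14 in Villin-Cre ilea, where 21.5% of all genes were higher and 31.1% lower. Smooth muscle markers, led by Myh11, Des and Acta2, summed to 6921 to 7037, 2718 to 4097, 7387 to 7780 and 967 to 993 CPM in the same group order, with all 10 lower under GW3965 in both genotypes. None of them was called between genotypes with vehicle. Paneth cell markers, led by Reg3g, Lyz1 and Slc30a2, summed to 4805 to 4908, 1841 to 3326, 1564 to 1593 and 335 to 343 CPM. Of the 10, 9 were lower and 0 higher in Villin-Cre than floxed vehicle ilea (7 lower when scaled by the median of gene ratios), where 9.61% of all genes were higher and 30.7% lower. The Paneth sum is mostly Reg3g, an antimicrobial lectin that enterocytes also make, which averaged 4382, 2034, 1396 and 153 CPM. Pla2g2a had the same group order, at 15.3, 5.39, 1.75 and 0.563 CPM, as had Mmp7 and Defa30 (41.2, 39.8, 12.3 and 6.36 CPM). Lyz1, at 202, 393, 67.1 and 45.3 CPM, and Slc30a2, at 53.0, 78.9, 35.5 and 101 CPM, did not. Itln1, Defa17, Defa24 and Ang4 had, like Lyz1, their highest mean in floxed GW3965 ilea. The Lyz1 difference under GW3965 did not pass in either genotype. Under GW3965 2 of the 10 were lower, Reg3g and Pla2g2a, and 1 was higher, Slc30a2, in floxed ilea, and 6 were lower (5 when scaled by the median of gene ratios) and Slc30a2 higher in Villin-Cre ilea. All 12 cell cycle genes were lower in each of the 4 comparisons, and their sum went from 486 to 527 CPM in floxed vehicle down to 46.9 to 51.5 CPM in Villin-Cre GW3965 ilea. Of all genes, 20.9 and 31.1% were lower under GW3965 in floxed and Villin-Cre ileum, and 30.7 and 38.3% between genotypes with vehicle and GW3965. Markers of pancreatic acinar cells, which store zinc, summed to 7.01 to 14.3 CPM, with Amy2a5 at 0 in every ileal library. Between genotypes with vehicle, the goblet cell markers Muc2, Fcgbp, Tff3 and Zg16 were not called, Clca1 was higher, and Agr2 and Spink4 were lower. Of the T and NK cell genes there, Gzma was higher (12.6 against 49.1 CPM), as was Cd8a (5.80 against 18.5 CPM), and Cd4 and Cd3d were not called. With GW3965 in Villin-Cre ilea Gzma fell to 14.8 and Cd8a to 7.47 CPM. The part of any of these cells in the results for the 8 genes was not tested.

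Among liver markers, those of macrophages, led by Marco, Csf1r and Clec4f, summed to 809 to 815 CPM in floxed vehicle, 523 to 838 in floxed GW3965, 1769 to 1802 in Villin-Cre vehicle and 1185 to 1222 in Villin-Cre GW3965 livers. Of all genes tested, 45.1% were higher and 11.7% lower in Villin-Cre than floxed vehicle livers, and GW3965 raised 2.85% and lowered 9.03% in Villin-Cre livers. All 12 macrophage markers were higher in Villin-Cre than floxed vehicle livers (9 when scaled by the median of gene ratios), as Mt1 and Mt2 were, and 8 were lower and 0 higher under GW3965 in Villin-Cre livers. Hepatocyte markers, led by Alb, Ahsg and Cps1, summed to 76652 to 78920, 55449 to 68720, 52878 to 53312 and 57009 to 58848 CPM, with 8 of 10 lower and 1 higher in Villin-Cre than floxed vehicle livers (8 and 0 after that scaling). Fibroblast markers, led by Fn1, Col3a1 and Dcn, summed to 3481 to 3531, 3014 to 3330, 3338 to 3372 and 3573 to 3788 CPM, with 7 of 8 higher and Fn1 lower in Villin-Cre than floxed vehicle livers (also 7 and 1 after that scaling). Most of that sum is Fn1, which averaged 2939, 2793, 2275 and 2786 CPM. Col3a1 averaged 187, 129, 307 and 330 CPM and Dcn 153, 113.5, 281 and 166 CPM. Smooth muscle markers, led by Smtn, Tagln and Des, summed to 54.4 to 60.8, 48.6 to 51.5, 104 to 107 and 105 to 110 CPM, with 7 of 9 higher and 0 lower in that comparison (5 higher after that scaling). The intestinal genes Defa24, Defa17, Defa30 and Pla2g2a of the Paneth list were at 0 in every liver library. The part of these cells was not tested.

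Genes most like Mt1 over the 12 libraries of a tissue were taken by the Pearson r of log2(CPM + 0.5), a description in which the points share 4 groups and carry their differences. In the ileum, of 13446 genes compared, these were Oasl1 (0.981), Egln3 (0.953), Ifi35 (0.944), Asah2 (0.921) and Bpgm (0.918). Oasl1 averaged 37.2, 32.7, 60.8 and 70.8 CPM in floxed vehicle, floxed GW3965, Villin-Cre vehicle and Villin-Cre GW3965 ilea, the order of Mt1. Ileal Slc30a1 reached 0.917 and Mt2 -0.737. In the liver, of 12788 genes, Klf6 (0.9995), Tns3 (0.999), Thbd (0.9987), Tmsb4x (0.998) and Eif4ebp1 (0.998) came closest, with Mt2 at 0.995 and Slc30a10 at -0.924. Klf6, a zinc finger transcription factor, averaged 35.3, 22.8, 113.8 and 88.4 CPM in the same group order. The 11 tested neighbours within 250 kilobases of the Mt locus, chosen after values were seen, had between genotypes a range of log2 differences of -0.96 to 0.47 in vehicle ileum and -0.28 to 0.97 in vehicle liver, within which neither Mt1 nor Mt2 fell. The pair was chosen for its genotype differences, so its place outside those ranges is no test. With GW3965 in Villin-Cre ileum the range of the neighbours was -1.66 to 1.58, which takes in the change of Mt1 but not that of Mt2. In Villin-Cre liver it was -0.89 to 0.08, which takes in both. Ranges of -0.71 to 0.42 in floxed ileum and -0.53 to 0.87 in floxed liver took in neither.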

How the data were processed

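Total RNA of ileum and liver was freed of ribosomal RNA by an RNase H method, reverse transcribed from random hexamers and sequenced as paired 150-base reads, per the labels' protocols. The submitters' processing notes name the build GRCm38, STAR 2.5.1a, featureCounts 1.4.6-p5, Subread and bcl2fastq. The annotation release, strand setting and log formula were not given in the sources used here. Log2 values scaled to library size were deposited by the authors in a table of 40757 entries and 12 libraries for each tissue. Of these, 276 repeated entries were dropped. The lowest value, -5.62, stands for 0 reads. Subtracting it on the linear scale gave CPM, and 100% of the values up to 200 reads were then whole numbers within 0.05. Of these read numbers 59.9 to 62.2% were even, so both mates of many fragments were counted and reads overstate the precision. Ileal libraries held 16.96 to 24.2 M reads and liver libraries 26.4 to 32.3 M.

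Genes that reached 0.5 CPM in 3 libraries or more were fitted on log2(CPM + 0.5) with limma 3.58.1 (R 4.3.3). Each tissue had its own fit of 4 group means over 12 libraries, with trended empirical Bayes moderation, and p-values were adjusted by Benjamini-Hochberg with calls under 0.05. Tissues were compared in 1 fit of 24 libraries, since both tables share their lowest value. An exact permutation of 3 against 3 libraries cannot go below p = 0.1, so none is given. Groups and replicate numbers come from the labels. The members and gene lists were chosen with earlier results of these data known. Named genes are the members, Abca1, up to 4 genes of each zinc, copper or response list per comparison with the smallest p, the 3 highest genes of each marker list and the 5 genes most like Mt1. Further genes are named for the Paneth, bile duct, goblet, and T and NK cell lists. Alternatives were another scaling (median of gene ratios), no filter, 1 CPM in 6 libraries, voom, a pseudocount of 2, the log2 values as deposited, only the groups compared, the replicate block, leaving out each library, and averaging libraries whose variance was under 4 times that of Poisson counting. Steps were tested on simulated data. Coordinates and coding sequences are from the GENCODE annotation and genome of GRCm38, promoters from RefSeq on GRCm38.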

Additional observations from a re-analysis of the deposited data

Results flagged for a closer look

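Results are listed here because a GW3965 effect differed between genotypes or tissues, or because genotypes differed in opposite directions in the tissues. All values are log2 differences. The GW3965 effect was larger in Villin-Cre than in floxed ileum for Slc30a10 by 1.83, Mtf1 by 0.57 and Slc39a14 by 0.44. In the liver the same difference was 1.13 for Slc39a4, 1.12 for Slc30a10, 0.88 for Slc39a5, 0.85 for Slc30a1 and 0.23 for Slc39a14. These differences are made of the genotype values by which the set was chosen, so their calls are not independent of that choice. The Slc30a10 call in the liver was lost with no filter, with voom and without any of 4 single libraries (limma adjusted p = 0.051 to 0.074). Ileal Mt1 and Mt2 were lower in every floxed and higher in every Villin-Cre library with GW3965 than in those with vehicle, with differences of 1.68 and 3.34 that were not tested, because these genes were chosen on the genotype values.

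Between tissues, ileum minus liver, the GW3965 effect in floxed mice differed for Slc39a4 by 2.23, Slc30a1 by 0.73, Slc39a5 by 0.62, Mt2 by 0.44, Mt1 by 0.39 and Slc39a14 by 0.25. The Mt1 and Mt2 calls among these (limma adjusted p = 0.041 and 0.027) were both lost with a pseudocount of 2, with only the groups compared fitted and without any of 4 single libraries (limma adjusted p = 0.057 to 0.42). In Villin-Cre mice it differed for Mt2 by 2.22, Mt1 by 1.396, Slc39a4 by 1.26, Slc30a10 by 1.21, Slc39a14 by 0.47 and Mtf1 by 0.43. The genotype difference had opposite signs in the tissues, with no overlap of libraries in either, for Mt2 (ileum minus liver -8.91 with vehicle and -7.14 with GW3965), for Slc39a4 with vehicle (1.78) and for Slc30a10 with GW3965 (2.94). These 4 were not tested.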

How the results depend on the processing

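With close libraries averaged, 3 of the 4 groups of a tissue held 1 unit and the floxed GW3965 group 2, which left 1 residual degree of freedom, so that a fall in calls follows from the construction and says nothing on stability. The 41 member differences called otherwise all kept their sign, and moved by -0.16 to 0.13 in log2. Members called fell to 1 in floxed and 3 in Villin-Cre ileum under GW3965 (Slc39a4 in the former, Mt2, Slc30a10 and Slc39a4 in the latter) and to 0 in every other comparison tested for them. Other zinc transporters called then numbered 0 and 1 under GW3965 in floxed and Villin-Cre ileum, 0 and 0 between genotypes in the ileum with vehicle and GW3965, 0 in floxed liver under GW3965 and 0 and 5 between genotypes in the liver. Over all genes, 137 in place of 6633 and 1260 in place of 9799 were called under GW3965 in floxed and Villin-Cre ileum, and 0 in place of 6154 differed in response between ileal genotypes. Between ileal genotypes themselves 6 in place of 7527 were called with vehicle and 1001 in place of 9682 with GW3965. In the liver 6 in place of 5265 and 0 in place of 2081 were called under GW3965, 206 in place of 9951 and 1670 in place of 9798 between genotypes, and 0 in place of 3479 for the difference in response. When only the groups compared were fitted, 3458 genes were called in floxed and 4818 in Villin-Cre liver under GW3965; the cause was not tested. The 0 other zinc transporters called in Villin-Cre liver under GW3965 became 1 with median-ratio scaling, 2 with only the groups compared and 1 with the replicate block, and the 12 between vehicle liver genotypes became 7 with median-ratio scaling. That scaling turned the Villin-Cre minus floxed difference to 0.24 for Mtf1 and 0.16 for Slc39a14 in vehicle ileum, 0.14 for Slc39a5 in GW3965 ileum, -0.024 for Mtf1, -0.28 for Slc30a1 and -0.24 for Slc39a14 in vehicle liver and -0.015 for Slc39a5 in GW3965 liver.

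Leaving out each library in turn gave 4 to 7 members called under GW3965 in floxed ileum, 3 to 6 for the ileal difference in response, 0 to 2 other zinc transporters in Villin-Cre liver and counts within 1.5 times elsewhere. The upper limits came without ileal floxed GW3965 replicate 3 and liver floxed GW3965 replicate 1. Within a tissue the replicate numbers did not pair the libraries of different groups. Same-numbered libraries deviated with r of -0.04 to 0.054 among ileal and -0.026 to 0.031 among liver pairs. The replicate block kept the count of members called at 4, 7, 5 and 5 in the GW3965 comparisons. Pairing of ileal with liver libraries of the same number was not examined, and the comparison of tissues took them as unpaired. Counting reads limits Mt2 in Villin-Cre vehicle ileum, where 33 to 41 reads stood behind each value.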
